A study of Mus musculus with 10 samples.

Results

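The levels of 10 genes for regulatory subunits of protein phosphatase 2A (PP2A) were followed in RNA-seq counts of YFP-positive cells sorted from spinal cords at e10.5. They were Ppp2r2a, Ppp2r2b, Ppp2r2c and Ppp2r2d of the B55 class, Ppp2r3a of the B72 class, and Ppp2r5a, Ppp2r5b, Ppp2r5c, Ppp2r5d and Ppp2r5e of the B56 class. These 10 genes were listed by name out of 48972 genes with exon bins, and all 10 were among the 17835 genes that passed the filter on low counts. The list was built around Ppp2r2b, which was chosen by its measured fall in this same comparison, so its values are given as a description, without a test. The 5 control samples had the genotype Olig2-Cre+/- and Rosa26R-YFP+/- with Oc1+/Flox and Oc2+/Flox. The 5 cdKO samples, on the same Olig2-Cre+/- and Rosa26R-YFP+/- background, had Oc1-/Flox and Oc2-/Flox. Cre was thus present in every sample, and control cells kept a wild-type allele of each Oc gene beside a floxed one that Cre can inactivate. Cre driven from Olig2 labels motor neurons (MNs), their progenitors and, per the study, some V3 interneurons. The labels do not say whether samples came from separate embryos, litters or pools, so each p-value below measures only the spread between these samples.

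PP2A is a serine/threonine phosphatase built from a catalytic subunit, a scaffold subunit and 1 exchangeable regulatory (B) subunit. The regulatory subunit sets which substrates the enzyme reaches and where in the cell it works. B55 subunits are known for reversing cyclin-dependent kinase phosphorylation at the end of mitosis and for acting on microtubule-associated proteins such as tau. B56 subunits dock on short linear motifs of their partners and act, among other places, at centromeres and on Wnt and growth factor signalling. The B72 class, encoded by Ppp2r3a, binds calcium. Among B55 genes, Ppp2r2b and Ppp2r2c are known as the brain-enriched members, while Ppp2r2a and Ppp2r2d are used in most tissues. Human PPP2R2B is the gene that carries the repeat expansion of a form of spinocerebellar ataxia.

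The total of counts over exon bins ranged from 63932395 to 107709534 in control and from 72315782 to 84249157 in cdKO samples. Values are given as CPM, counts scaled to a common library size, after TMM scaling, which gives each library 1 scaling factor. Differences in composition between libraries remain after it. Oc3, which depends on Oc1 and Oc2, had 0.489 ± 0.141 CPM (SD, n = 5) in control and 0.0125 ± 0.0156 CPM in cdKO samples, and its groups did not overlap. Oc1, listed as Onecut1, had 5.84 ± 2.82 and 2.71 ± 1.26 CPM, with 68.9% of its counts on bins that several genes share. Oc2, listed as Onecut2, had 4.80 ± 3.34 and 6.91 ± 7.14 CPM. Without cdKO replicate 5, at 19.2 CPM, the cdKO mean was 3.84 ± 2.28 CPM (SD, n = 4), below the control mean. The study attributes the Oc2 sequences it detected to truncated transcripts of mutant tissue, which yield no functional peptide. The Oc2 level thus does not measure the loss of Oc2 function. All 8 MN markers examined had counts in every sample, with a summed level of 511 to 655 CPM in control and 300 to 759 CPM in cdKO samples. The summed level of 9 markers of postmitotic neurons ranged from 1031 CPM in control replicate 5 to 5187 CPM in control replicate 1, and from 1786 to 5229 CPM in cdKO samples. The 9 progenitor markers summed to 1971 to 2823 CPM and 1824 to 3715 CPM. Of these, Hes5, with means of 1149 CPM in control and 1018 CPM in cdKO samples, had 86.0% of its counts on bins of opposite-strand genes. The 3 V3 interneuron markers stood at 99.7 CPM in control replicate 5 and at 18.5 to 38.7 CPM in the other 9 samples. Nkx2-9 held 84.5 CPM of the sum in control replicate 5, and Nkx2-2 held 15.1 CPM. Sim1 had 0.148 CPM there, its lowest level in the 10 samples, so the sum does not stand for the 3 markers alike. Erythroid markers summed to 0.901 to 19.0 CPM in control and 2.83 to 66.1 CPM in cdKO samples, and mesenchyme markers to 6.57 to 18.6 CPM and 9.98 to 21.5 CPM. Endothelial markers summed to at most 3.38 CPM and macrophage markers to at most 6.36 CPM in any sample. The library of cdKO replicate 5 had counts on 198569 bins, against 243970 to 271591 in the other libraries, and the log2 fold changes of the 10 genes are given with and without it.

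Ppp2r2b was lower in cdKO samples. It measured 26.9, 16.8, 16.4, 16.8 and 6.26 CPM in control replicates 1 to 5 and 6.51, 3.90, 5.53, 5.63 and 4.61 CPM in cdKO replicates 1 to 5. Control replicates 1 to 4 lay above every cdKO sample, and control replicate 5 lay within the cdKO range, so the groups overlapped by that library alone. The means were 16.6 ± 7.31 CPM (SD, n = 5) and 5.24 ± 1.01 CPM (SD, n = 5), which puts the cdKO mean at 31.5% of the control mean. The log2 fold change was -1.67 with a standard error of 0.36, and 80 of the 17835 genes tested had a lower one. Leaving out 1 library at a time moved it between -1.88, without control replicate 5, and -1.42, without control replicate 1, and it was -1.63 without cdKO replicate 5. In RNA from bulk sorted cells, fewer cells with Ppp2r2b transcripts and fewer transcripts per cell cannot be told apart. With edgeR's quasi-likelihood F test, adjusted by Benjamini and Hochberg's method over all genes, 0 genes (0%) passed an adjusted p of 0.05. At an unadjusted p under 0.05 this test had 743 genes higher (4.17%) and 145 lower (0.813%) in cdKO samples, and 107 higher and 318 lower of 18131 without cdKO replicate 5. Among all genes tested, 40 (0.224%) had every cdKO sample below every control sample, and Ppp2r2b was not among them because of control replicate 5.

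**Figure D1:**
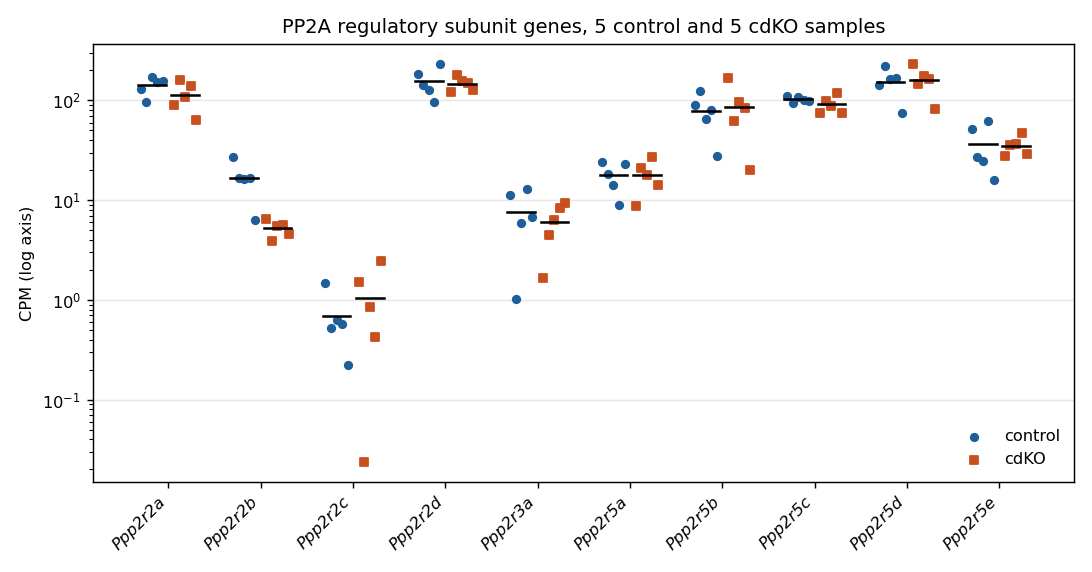
Level of each PP2A regulatory subunit gene in CPM on a log axis, with control samples as blue circles and cdKO samples as orange squares, replicates 1 to 5 from left to right, and the group mean as a black bar. The Ppp2r2b means are 16.6 CPM in control and 5.24 CPM in cdKO samples, with control replicate 5, at 6.26 CPM, inside the cdKO range. The points of each of the other 9 genes overlap broadly.

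The other 3 B55 genes did not pass an adjusted p of 0.05, which none of the 17835 genes tested passed. Ppp2r2a measured 129, 96.3, 172, 152 and 158 CPM in control and 89.6, 160, 109, 138 and 64.0 CPM in cdKO samples. Its groups overlapped, with 4 of 5 cdKO samples below the control median, and the log2 fold change was -0.33 (SE 0.30, 95% interval -0.92 to 0.25, adjusted p = 0.997 in edgeR), or -0.18 without cdKO replicate 5. Ppp2r2d, the other broadly used B55 gene, had 182, 142, 128, 96.9 and 232 CPM in control and 121, 181, 155, 149 and 128 CPM in cdKO samples. The cdKO values all lay inside the control range, and the log2 fold change was -0.09 (SE 0.28, 95% interval -0.64 to 0.46, adjusted p = 0.998 in edgeR), or -0.03 without cdKO replicate 5. Ppp2r2c, the other brain-enriched member, was low, with 0.222 to 1.495 CPM in control and 0.0238 to 2.46 CPM in cdKO samples, or 15 to 149 counts and 2 to 125 counts. Its log2 fold change was 0.61 with an SE of 0.80, and the 95% interval, from -0.97 to 2.18, included 0. The value rested on cdKO replicate 5, the sample with 2.46 CPM: it was 0.03 without that library and 1.11 without control replicate 1, the lowest and highest values when 1 library was left out. The difference between these genes and Ppp2r2b was not tested, because Ppp2r2b was chosen on this contrast.

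The 5 B56 genes, like every gene tested, did not pass an adjusted p of 0.05 either. Ppp2r5d, the B56 member with the highest level per length, ranged from 75.0 to 221 CPM in control and from 82.8 to 231 CPM in cdKO samples (log2 fold change 0.06, SE 0.34). Ppp2r5b had 90.4, 124, 64.8, 80.8 and 27.4 CPM in control and 168, 62.3, 96.2, 83.4 and 20.1 CPM in cdKO samples, with replicate 5 lowest in both groups (log2 fold change 0.15, SE 0.49). Ppp2r5c was the steadiest of the 10 genes in control samples, at 94.7 to 112 CPM, and had 75.0 to 119 CPM in cdKO samples (log2 fold change -0.17, SE 0.24). Ppp2r5e ranged from 16.1 to 61.7 CPM and from 27.8 to 47.1 CPM, and Ppp2r5a from 8.85 to 24.2 CPM and from 8.67 to 27.0 CPM, with log2 fold changes of -0.05 (SE 0.37) and 0.01 (SE 0.36). The 5 adjusted p-values were 0.997 or more in edgeR. Without cdKO replicate 5 the log2 fold changes were 0.22 for Ppp2r5d, 0.40 for Ppp2r5b, -0.11 for Ppp2r5c, 0.01 for Ppp2r5e and 0.08 for Ppp2r5a. Strand was not used in the counting, and 29.8% of the Ppp2r5d counts and 14.1% of the Ppp2r5b counts lay on bins overlapped by a gene of the opposite strand, so those 2 levels are uncertain. Over the 9 genes other than Ppp2r2b, 4 log2 fold changes were positive and 5 negative, with a median of -0.05, beside a median of -0.02 over all genes tested. Without cdKO replicate 5 there were 5 positive and 4 negative values with a median of 0.01. None of the 9 had an unadjusted p under 0.05, and with 4.17% of all genes under it in the higher and 0.813% in the lower direction, that count does not set the 9 apart from other genes.

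Ppp2r3a, the B72 gene, varied widely between samples of the same group. It had 11.2, 1.03, 5.89, 13.1 and 6.78 CPM in control and 1.66, 4.48, 6.36, 8.26 and 9.35 CPM in cdKO samples. The groups overlapped over nearly their whole range, and the log2 fold change was -0.33 (SE 0.58, adjusted p = 0.997 in edgeR), or -0.55 without cdKO replicate 5. Ppp2r3a is also the member with RefSeq start sites farthest apart, 52.8 kb, among those with exon bins at both sites. The 134-base first exon at the upstream site, chr9:101251662-101251795, received 52, 3, 26, 37 and 54 counts in control and 7, 8, 16, 27 and 136 counts in cdKO samples. The downstream first exons, 3079 bases at chr9:101197466-101200544 that 4 transcripts start from, received 0, 0, 2, 17 and 36 counts in control and 0, 1, 0, 8 and 0 counts in cdKO samples. Both groups thus had libraries with counts and libraries with none on these first exons, and a count of 0 allows up to 3. The bins that reach into the 300 bases after the RefSeq downstream start, 101199073, are a part of them. These bins had 0, 0, 0, 9 and 15 counts in control and 0, 0, 0, 0 and 0 counts in cdKO samples, and the difference was not tested. The bases before each start are printed because the sites differ in composition, with GC contents of 60.4% and 34.0%. They come from RefSeq on GRCm38.p6, minus strand, chr9:101251833-101252082 and chr9:101199074-101199323, 250 bases each, 5′ to 3′, with the GC box letters GGGCGG (searched on both strands, no overlaps) in capitals.
Ppp2r3a upstream site: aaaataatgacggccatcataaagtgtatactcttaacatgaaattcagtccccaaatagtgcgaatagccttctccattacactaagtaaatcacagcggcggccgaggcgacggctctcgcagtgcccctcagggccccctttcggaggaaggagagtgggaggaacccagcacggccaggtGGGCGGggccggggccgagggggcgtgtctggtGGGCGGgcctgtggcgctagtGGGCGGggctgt
Ppp2r3a downstream site: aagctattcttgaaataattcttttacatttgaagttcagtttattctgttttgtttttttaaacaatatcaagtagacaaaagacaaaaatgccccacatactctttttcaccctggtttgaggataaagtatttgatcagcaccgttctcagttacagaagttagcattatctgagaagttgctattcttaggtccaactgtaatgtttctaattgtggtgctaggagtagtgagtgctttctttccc
The upstream sequence holds 3 GC boxes and the downstream sequence none, while 32.7% of 32851 RefSeq windows of the same length hold at least 1. Neither holds the letters TATAAA on either strand, found in 12.4% of windows.

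Promoter sequences for 7 of the 10 genes were in the RefSeq table, in 11 entries, and Ppp2r2a, Ppp2r2b and Ppp2r5e were not. The letters ATCGAT and ATTGAT, cores bound by OC proteins, were searched on both strands in the 250 bases before each start and occurred in 0 of the 7 genes. They are found in 0.728% and 6.72% of all windows of 250 bases. The result describes these letters in these windows alone.

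The order of the levels was set by CPM per kb of exon in control samples. Ppp2r5d was highest at 52.5 ± 18.1 CPM per kb (SD, n = 5), followed by Ppp2r2a at 35.0 ± 7.32, Ppp2r5b at 26.7 ± 12.2, Ppp2r2d at 26.5 ± 8.87 and Ppp2r5c at 24.4 ± 1.67 CPM per kb. Neighbours among these 5 overlapped in their ranges. A gap without overlap separated Ppp2r5c from Ppp2r5e, at 7.56 ± 4.06 CPM per kb. Ppp2r2b came seventh with 4.17 ± 1.83 CPM per kb, above Ppp2r5a (1.84 ± 0.66), Ppp2r3a (0.609 ± 0.380) and Ppp2r2c (0.155 ± 0.107), each overlapping its neighbour. In cdKO samples the Ppp2r2b level was 1.31 CPM per kb, below the Ppp2r5a level of 1.85. Because reads were counted on every bin they touch, genes cut into many short bins are set too high on this scale. The exon length also includes exons without counts, as for Ppp2r2b, which sets a gene too low. From the densest bin of at least 100 bases the order at the top differed. Ppp2r2d was at 113, Ppp2r2a at 108, Ppp2r5d at 95.4, Ppp2r5c at 90.4 and Ppp2r5b at 51.9 CPM per kb in control samples. Ppp2r2b was at 10.3 CPM per kb. The order among close neighbours should be read with these limits.

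Ppp2r2b thus made up a small share of B55 transcripts. Of the summed B55 level per kb it held 9.67%, 8.04%, 6.01%, 7.21% and 1.96% in control and 3.66%, 1.37%, 2.53%, 2.31% and 2.95% in cdKO samples. The highest cdKO share was below that of control replicates 1 to 4 and above that of control replicate 5. Ppp2r2a held 53.4% ± 9.19 in control and 50.2% ± 6.31 in cdKO samples (SD, n = 5), and Ppp2r2d 39.8% ± 9.31 and 46.7% ± 5.35. The summed B55 level was 65.8 ± 10.8 CPM per kb in control and 54.2 ± 12.8 CPM per kb in cdKO samples, and without Ppp2r2b 61.6 ± 11.6 and 52.9 ± 12.9. The summed B56 level was 113 ± 30.6 and 115 ± 36.9 CPM per kb. Each of these sums overlapped between the groups. The shares and sums carry the limits of the scale per kb.

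The rest of the PP2A machinery was examined through a list of 23 genes, all of which passed the count filter. None of the 23 passed an adjusted p of 0.05 or, in the same edgeR fit, an unadjusted p under 0.05. Over all genes tested the shares were 0% for the former, and 4.17% higher and 0.813% lower for the latter. These counts thus do not set the 23 apart from other genes. Of their log2 fold changes 14 were positive and 9 negative, with a median of 0.06. For the catalytic subunits, Ppp2ca had 791 ± 151 CPM (SD, n = 5) in control and 730 ± 165 CPM in cdKO samples (log2 fold change -0.11, SE 0.27), with 32.7% of its counts on bins of opposite-strand genes. Ppp2cb had 42.6 ± 26.5 and 76.7 ± 72.7 CPM, and its log2 fold change of 0.85 was the largest of the list with an SE of 0.62. That value rested on cdKO replicate 5, at 200 CPM against 17.4 to 80.7 CPM in the other cdKO samples, and was 0.11 without it. The scaffold genes Ppp2r1a and Ppp2r1b had log2 fold changes of 0.06 (SE 0.34) and -0.29 (SE 0.47), and of 0.24 and -0.00062 without that library. The 5 other regulatory genes, Ppp2r3c, Ppp2r3d and the striatins Strn, Strn3 and Strn4, lay between -0.49 and 0.16, and the 5 genes of assembly and methylation, Ptpa, Lcmt1, Ppme1, Igbp1 and Tiprl, between -0.10 and 0.33. The 7 genes of inhibitors and their kinase were Set, Anp32a, Cip2a, Ensa, Arpp19, Bod1 and Mastl. They spanned -0.63, for Mastl, the kinase that turns Ensa and Arpp19 into inhibitors of PP2A-B55, to 0.59 for Anp32a. Ensa itself was at 0.0035 (SE 0.24) and Arpp19 at 0.25 (SE 0.32). The catalytic subunits of the related phosphatases, Ppp4c and Ppp6c, were at 0.33 and 0.16. Without cdKO replicate 5 the 23 genes lay between -0.37, for Mastl, and 0.49, for Ptpa, with 13 positive, 10 negative and a median of 0.04, and Anp32a stood at 0.14 and Arpp19 at -0.06.

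**Figure D2:**
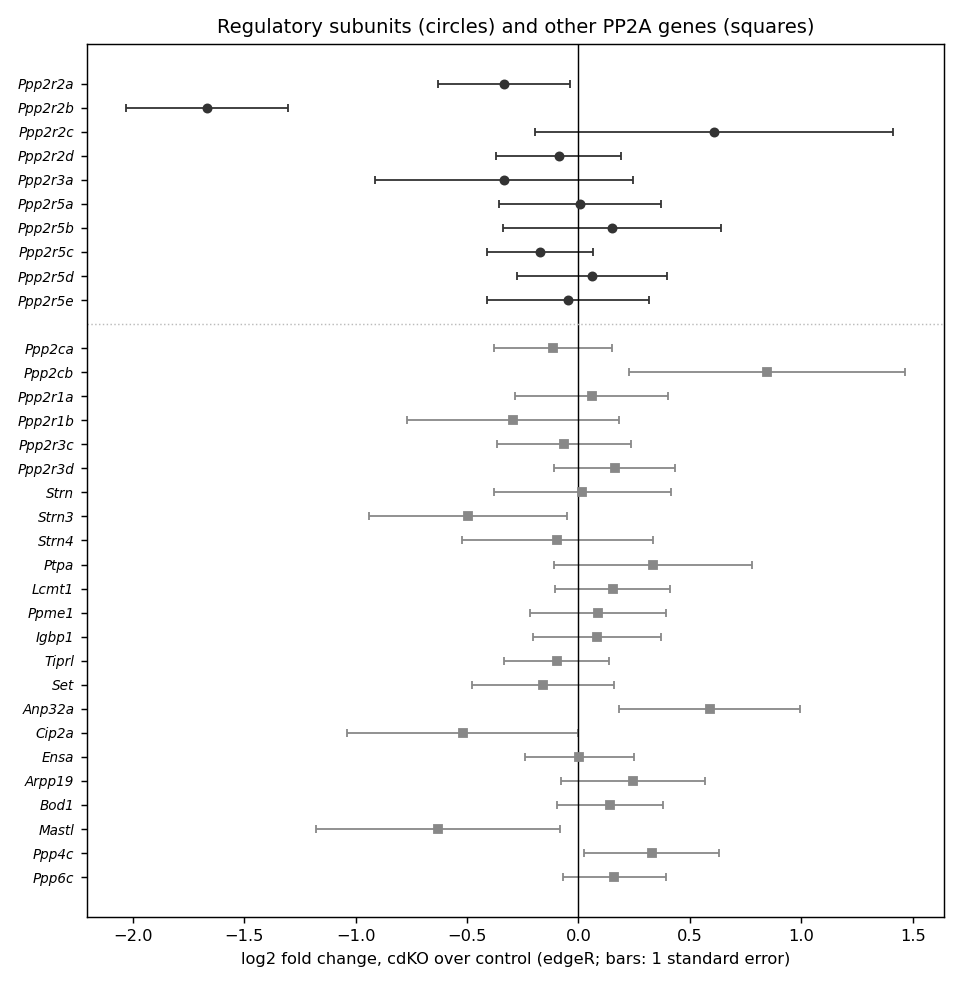
Log2 fold change of cdKO over control samples, from edgeR, with 1 standard error on each side, for the 10 regulatory subunit genes (circles) and the 23 other PP2A genes (squares). Ppp2r2b lies at -1.67 (SE 0.36), and the other 32 genes lie between -0.63 and 0.85, the latter for Ppp2cb, which is at 0.11 without cdKO replicate 5.

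The 5 genes with the pattern most like that of Ppp2r2b over the 10 samples, by Pearson r of log2(CPM + 0.5) with group means removed among 13541 genes, were Ctnna2 (0.972), Lrrtm3 (0.972), Col3a1 (0.965), Dpp6 (0.964) and Nefl (0.963). Ctnna2 is a neuronal catenin, Lrrtm3 a synaptic adhesion protein, Dpp6 an auxiliary subunit of potassium channels and Nefl the light neurofilament, which is also among the 9 neuron markers, while Col3a1 is a fibrillar collagen of mesenchyme. These coefficients are a description over samples that share the extremes of neuron marker level. Between groups the same 5 genes had log2 fold changes of 0.04, 0.47, 0.54, 0.08 and 0.26 in that order, none with an unadjusted p under 0.05 in edgeR. Among the members, Ppp2r5e (0.673), Ppp2r5b (0.653) and Ppp2r5d (0.650) came nearest to Ppp2r2b, and Ppp2r2d (-0.490), Ppp2r2a (-0.245) and Ppp2r5a (-0.203) had negative coefficients.

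Ppp2r2b was also set against the neuron markers of each library, with a divisor chosen after seeing the data. Per 1000 CPM of the 9 postmitotic neuron markers, Ppp2r2b had 5.19, 5.12, 7.004, 5.85 and 6.08 CPM in control and 1.35, 2.18, 1.38, 1.81 and 0.881 CPM in cdKO samples. Control replicate 5, the library with the lowest neuron markers and the lowest Ppp2r2b of its group, was within the control range on this scale, and the groups did not overlap. The means were 5.85 ± 0.77 and 1.52 ± 0.50 (SD, n = 5). Ppp2r2b was the only one of the 10 members whose ratio did not overlap, and across all genes tested 24 (0.135%) had this ratio lower in every cdKO than in every control sample. Since Ppp2r2b was chosen on the same contrast, nothing is read from that share or from the lack of overlap. With the log2 marker sum as a covariate in edgeR, an alternative chosen after seeing the data, the log2 fold change was -1.84 (SE 0.28). Per 1000 CPM of the 8 MN markers, Ppp2r2b ranged from 12.3 to 41.1 CPM in control and from 7.90 to 15.4 CPM in cdKO samples, which overlapped through control replicate 5 and cdKO replicate 5, and without the latter the highest cdKO value was 11.7 CPM. Snap25, among the 9 neuron markers, and Isl1, among the 8 MN markers, themselves had unadjusted p-values under 0.05 in the lower direction (edgeR log2 fold changes -0.85 and -0.82). Of the 9 neuron markers, 6 had positive and 3 negative log2 fold changes. Their mean sum was 2939 CPM in control and 3788 CPM in cdKO samples, and a higher sum by itself lowers the ratio. Stmn2 had the highest of these log2 fold changes, 1.10 (SE 0.57), and held 2545 of the 5229 CPM in cdKO replicate 5. Nefl and Nefm, also among the 9, had 31.1% and 52.2% of their counts on bins of opposite-strand genes, so the sum is uncertain. The part of erythroid and mesenchyme transcripts in these values was not tested.

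**Figure D3:**
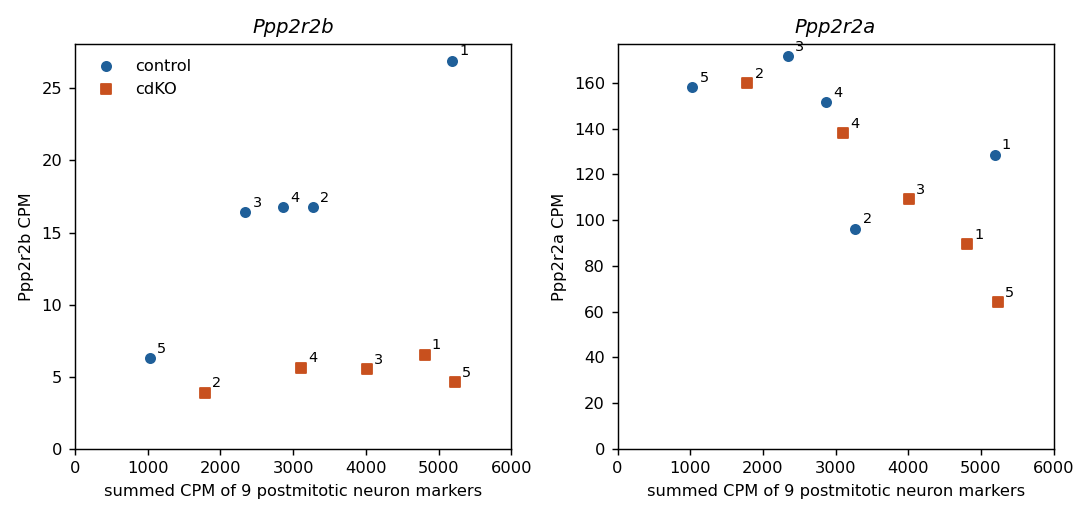
Level of Ppp2r2b (left) and Ppp2r2a (right) in CPM against the summed CPM of 9 postmitotic neuron markers, each point a sample labelled with its replicate number, control as blue circles and cdKO as orange squares. Ppp2r2b is higher in control samples with more neuron marker counts, from 6.26 CPM in replicate 5 to 26.9 CPM in replicate 1, while the cdKO samples stay between 3.90 and 6.51 CPM, whereas the Ppp2r2a points of both groups intermingle.

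Ppp2r2b (ENSMUSG00000024500) lies on chromosome 18 of GRCm38, minus strand, from 42637432 to 43059471, and was divided into 22 exon bins. Its 7 GENCODE M21 transcripts start at 3 places. The 310-base first exon of transcript 201 (43059162 to 43059471), the most upstream and the start of the transcript marked as principal, had 0 counts in all 10 libraries. The first exon of transcript 205 (42938064 to 42938232) and its other 2 separate exons also had 0 counts in every library. A count of 0 in a library allows up to 3 counts, or 0.0288 to 0.0591 CPM. All counts on first exons fell on the third place, 42898745 to 42899643, where transcripts 202, 203, 204, 206 and 207 start, with 1299 counts on the bins that belong to first exons only. Counts were thus found at the downstream start alone, in control and cdKO samples alike. No change of start site between the groups was detectable, because the other 2 start sites had no counts in either group.

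The lower level in cdKO samples was spread along the transcript. Of the 16 bins with at least 20 counts in all, 15 had a lower mean CPM in cdKO samples, at 21.1% to 60.1% of the control mean. The exception was the last 25 bases of the final exon, with 53 counts in all libraries together and a cdKO mean at 133% of control. The first exon of the downstream start (6 bins) went from 4.53 ± 1.58 to 1.64 ± 0.65 CPM (SD, n = 5), or to 36.1% of control, and without cdKO replicate 5 to 29.9%. The internal exons, 2 to 8 of transcript 202, went from 9.68 ± 4.68 to 2.65 ± 1.16 CPM, or to 27.3% of control, and without cdKO replicate 5 to 31.6%. The last exon, with the end of the coding sequence, went from 2.38 ± 1.10 to 0.951 ± 0.205 CPM, or to 40.0%, and without cdKO replicate 5 to 40.9%. Without that library the 3 stretches thus had 29.9%, 31.6% and 40.9% of their control means. Only 1 of these 16 bins, the 71 bases at the 3′ end of the first exon (42898745 to 42898815), did not overlap between the groups, with control replicate 5 and cdKO replicate 5 both at 0.473 CPM. Control replicate 5 lay within or below the cdKO range in the other 15.

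**Figure D4:**
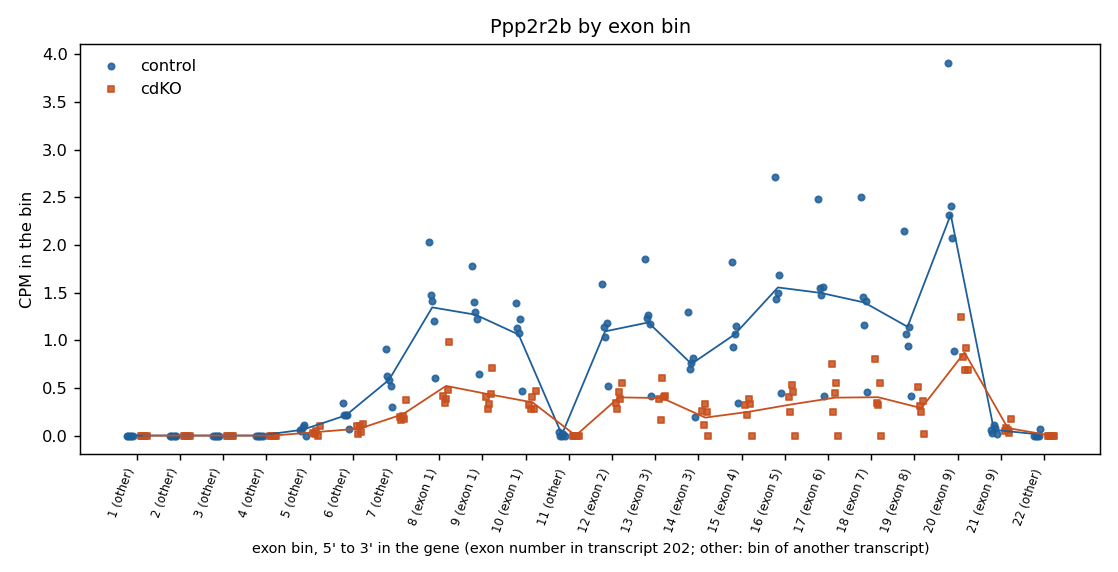
CPM in each of the 22 Ppp2r2b exon bins, ordered 5′ to 3′ in the gene and labelled with the exon of transcript 202 where the bin belongs to it, with 1 point per sample and a line through the group means. Bins 1 to 4 are at 0 in every sample, and the control mean (blue) lies above the cdKO mean (orange) in every bin from 5 to 20.

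The coverage along Ppp2r2b differed in the library of cdKO replicate 5. It had 59.8% of its Ppp2r2b counts on the first exon and 21.4% on the internal exons, whereas the other 9 libraries had 22.4% to 33.5% and 49.1% to 60.9%. Of its 16 bins with at least 20 counts, 5 were at 0 in that library, running from the last 43 bases of exon 3 to exon 7. Over the 166 such bins of all 10 members together, 21 were at 0 in cdKO replicate 5 and 2 to 10 in each of the other libraries. Its Ppp2r2b total of 234 counts is thus made of fewer exons than the totals of the other cdKO samples, 328 to 513 counts. Its part in the Ppp2r2b difference was measured by leaving it out, which gave a log2 fold change of -1.63 in place of -1.67.

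**Figure D5:**
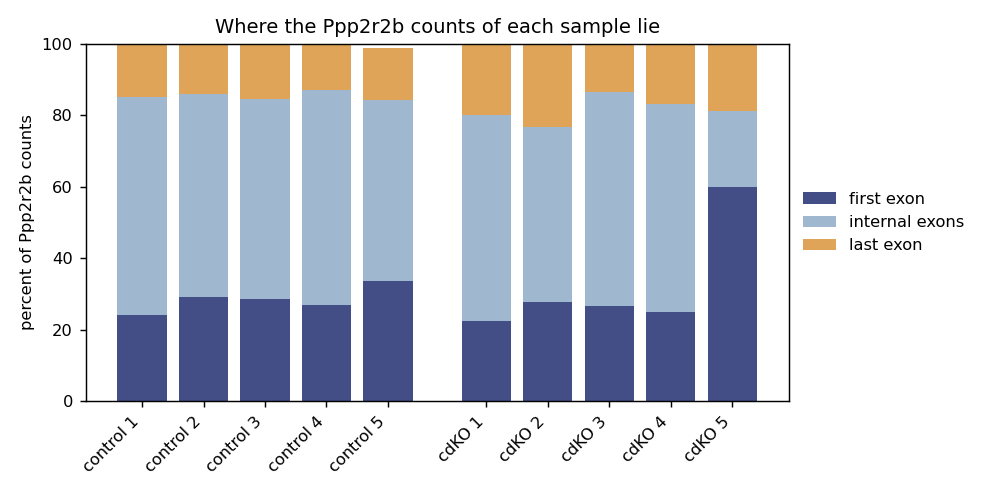
Percent of the Ppp2r2b counts of each sample that lie on the first exon of the downstream start, on the internal exons and on the last exon. The first exon holds 59.8% in cdKO replicate 5 and 22.4% to 33.5% in the other 9 samples, and the bar of control replicate 5 ends short of 100% because 5 of its counts lie on the last exon of transcript 204.

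The start that had counts bears on the protein. Transcript 201 encodes 446 residues and transcript 202 encodes 443. They share their 422 C-terminal residues and differ in the first 24 and 21 residues, respectively, and transcript 203 encodes the same protein as transcript 202. The region where these proteins differ is the amino-terminal tail known to steer the subunit within the cell. The 4 B55 proteins are 80.8% to 89.9% identical over their alignments, and Ppp2r2b is 87.0% identical to Ppp2r2a. In coding bases the 4 genes are 72.2% to 77.6% identical, and the 5 B56 genes 68.7% to 76.4%, with protein identities of 64.7% to 79.8%.

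The genes around Ppp2r2b were examined for a change of the same kind. On the side of lower coordinates the nearest protein-coding gene, Gpr151, 57780 bases away, had 8 counts in all libraries together. On the other side Stk32a, a serine/threonine kinase gene 148112 bases away, had 36.9 ± 13.8 CPM (SD, n = 5) in control and 30.5 ± 12.5 CPM in cdKO samples. Its log2 fold change was -0.27 (SE 0.35), with an unadjusted p of 0.446 in edgeR. The antisense gene 4933407I08Rik inside the Ppp2r2b locus had 0 counts. Oc2 lies on the same chromosome, 21.3 Mb away.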

How the data were processed

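The authors deposited whole-number counts of reads on exon bins for each of 10 samples (425461 bins, no normalization). The submitters' processing notes name STAR 2.5.2b, Subread 1.5.2 and GRCm38. For 4570 very short bins flanked by touching bins, the median ratio of a bin's count to its lower neighbour was 1.03, and counts were identical for 16 of 16 intervals that occur on both strands. Reads were thus counted on every bin they overlap, without strand, so gene sums count overlaps, not reads. Bins were given to genes with GENCODE M21 (49384 of 49644 identifiers matched), and 3988 bins with 1.17% of the counts were left out. Low genes were removed with filterByExpr at a minimum count of 10. TMM scaling and the quasi-likelihood test came from edgeR 4.0.16 (R 4.3.3), Benjamini-Hochberg threshold 0.05, over 17835 genes. The edgeR standard errors are the size of the log2 fold change divided by the square root of the test's F statistic. For Ppp2r2b the standard error is a description, and no p-value is drawn from it. The 95% intervals are normal intervals from the standard error, and are narrower than intervals that allow for the degrees of freedom. Library depth (63932395 to 107709534 counts) sets a floor of 3 counts at 0.0288 to 0.0591 CPM, for counting error only. The fits were tested on simulated data. The members and lists were chosen with earlier results of these data known. Genes named are the 10 members, the 23 other PP2A genes, the nearest protein-coding neighbours and overlapping genes of Ppp2r2b, the 5 genes most like it, and Oc1 to Oc3. Isl1, Snap25, Stmn2, Nefm, Hes5 and the 3 V3 interneuron markers are also named and were chosen after their values were seen. Alternatives were DESeq2's size factors, library size alone, DESeq2 1.42.0, limma-voom (limma 3.58.1), other count filters, other sets of bins, omission of single samples, and a block for replicate number. A covariate or divisor for neuron markers was added after seeing the data. Coding sequences from GENCODE M21 were compared by global alignment.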

Additional observations from a re-analysis of the deposited data

Results flagged for a closer look

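The values of 64 groups of 5 samples were searched for a sample whose gap to the nearest other sample takes up most of the group's range, a rule that chance meets in about 1 in 20 groups. It was met 15 times, 10 times by cdKO replicate 5 and 5 times by control replicate 5, in both directions.

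In cdKO replicate 5 the share of Ppp2r2b counts was 59.8% on the first exon (22.4% to 27.7% in the other cdKO samples) and 21.4% on the internal exons (49.1% to 59.8%). The share of counts on bins centred beyond the midpoint of the exon length, towards the 3′ end, stood apart in the same library for 7 members. It was 52.6% for Ppp2r2a (24.7% to 26.7% in the other cdKO samples), 48.1% for Ppp2r2d (69.9% to 73.1%), 81.4% for Ppp2r5a (61.1% to 65.3%), 84.9% for Ppp2r5b (55.5% to 58.7%), 16.9% for Ppp2r5c (4.91% to 8.23%), 96.2% for Ppp2r5d (42.2% to 46.6%) and 49.4% for Ppp2r5e (20.2% to 21.6%). It was higher for 6 of the 7 members and lower for Ppp2r2d. The first exon of Ppp2r5d had 0 counts in this library, against 252 to 356 in the other cdKO samples.

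Control replicate 5 stood apart in the same share for Ppp2r5d, at 58.1% (42.7% to 46.2% in the other control samples), and for Ppp2r5e, at 44.8% (at most 23.5%). Marker sums were also apart in these 2 libraries. Progenitor markers summed to 2823 CPM in control replicate 5 (1971 to 2192 CPM in the other control samples) and to 3715 CPM in cdKO replicate 5 (1824 to 2337 CPM in the other cdKO samples). In control replicate 5, V3 interneuron markers summed to 99.7 CPM (21.3 to 27.6 CPM) and endothelial markers to 3.38 CPM (1.60 to 1.84 CPM). Nkx2-9 held 84.5 CPM of that V3 sum and Nkx2-2 held 15.1 CPM. Sim1, at 0.148 CPM, lay below every other control sample (1.28 to 4.83 CPM). No member's CPM in either group was flagged. The cause of these differences was not tested.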

How the results depend on the processing

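Ppp2r2b kept its direction under all 22 alternatives, between -1.94 (divided by the neuron marker sum) and -1.42 on the log2 scale, with -1.88 to -1.42 when a sample was left out. The counts of the other 9 members and of the 23 PP2A genes past an adjusted p of 0.05 were 0 under all 21 alternatives. At an unadjusted p under 0.05, 1 of the 23 was higher without cdKO replicate 1. Over all genes, 4.17% were higher in the main fit, and 107 to 1196 genes when a sample was left out. Nothing about the 23 is read from that count. Over all genes the count past an adjusted p of 0.05 was 0 and became 1 with library size alone, with no count filter or with the neuron marker covariate, 3 with limma-voom, 20 with DESeq2, and 0 to 4 when a sample was left out, 4 without control replicate 5 and 1 without cdKO replicate 5. At an unadjusted p under 0.05 the 743 higher and 145 lower genes became 380 and 253 with library size alone, 107 and 318 without cdKO replicate 5 and 84 higher with the neuron marker covariate. Replicate numbers were tested as a block although same-numbered samples did not all deviate together (correlations of 0.09, -0.32, 0.17, 0.43 and 0.36). With the block Ppp2r2b was at -1.56, no gene passed the adjusted threshold, and of 10 samples those of replicates 4 and 5 correlated best with their own number.

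Small fold changes of uncalled members changed sign, and the cause was not tested. With the covariate Ppp2r2c was at -0.58, Ppp2r2d at 0.021, Ppp2r5b at -0.038, Ppp2r5d at -0.040 and Ppp2r1a at -0.072. With library size alone Ppp2r5a was at -0.077, Ppp2r5d at -0.049 and Ppp2r1a at -0.050. With limma-voom Ppp2r2c was at -0.30, Ppp2r5a at -0.0037, Ppp2r5e at 0.10 and Ppp2r1a at -0.013. With the block Ppp2r5a was at -0.010, Ppp2r5e at 0.11 and Ppp2r1a at -0.016. From the highest bin alone Ppp2r3a was at 0.54 and Ppp2r5d at -0.14, from bins of 1 gene Ppp2r5d was at -0.082, and with no filter Ppp2r5a was at -0.0015. Leaving out a sample gave -0.23 to 0.10 for Ppp2r2d, -0.20 to 0.18 for Ppp2r5a, -0.24 to 0.40 for Ppp2r5b, -0.11 to 0.23 for Ppp2r5d, -0.24 to 0.20 for Ppp2r5e, -0.22 to 0.016 for Ppp2ca and -0.23 to 0.24 for Ppp2r1a. With no change of sign it gave 0.11 to 1.14 for Ppp2cb and 0.029 to 1.11 for Ppp2r2c, both lowest without cdKO replicate 5. As a share of the gene in place of CPM, Ppp2r2b in cdKO against control was at 0.19 (log2) on the first exon, -0.21 on the internal exons and 0.37 on the last exon. A share by construction removes the change of the gene as a whole. The values include cdKO replicate 5, with 59.8% on the first and 21.4% on the internal exons. The other cdKO samples had 22.4% to 27.7% and 49.1% to 59.8% there, against 24.2% to 33.5% and 50.9% to 60.9% in control samples. On the last exon the shares were 19.9%, 23.2%, 13.6%, 16.7% and 18.8% in cdKO replicates 1 to 5, against 12.9% to 15.4% in control samples. Only cdKO replicate 3 lay within the control range there, and the difference was not tested. The depth limits Ppp2r2c most, with 2 counts in cdKO replicate 2, and neither the filter of 10 counts in every sample nor the highest bin alone gave it a value.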
